A study of Mus musculus with 13 samples.

Results

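A set of 7 genes that encode Polycomb proteins, the ATPase of the BAF chromatin remodelling complex, and the chromatin proteins Trim28 and Rif1 were followed through a comparison of 2 mouse RNA sources on arrays read in 2 colours. They were chosen by name, as all probes whose annotation gave exactly 1 symbol among Eed, Jarid2, Rnf2, Bmi1, Smarca4, Trim28 and Rif1. All 7 were found among the 9669 genes named by a single symbol, through 10 of the 20205 probes of the table, with 2 probes each for Jarid2, Smarca4 and Rif1. The sources were named NT1 and TBV, and the series title sets a homozygous loss of Sall4 beside NT1. Sall4 encodes a DNA-binding protein with zinc fingers that is active in pluripotent cells. The labels give neither a cell type, nor how the mutation was made, nor whether NT1 is 1 clone. The 13 arrays fell into 4 pairs of sources: NT1p14 with TBVp13 (5 arrays), NT1p12 with TBVp12 (4), NT1 1 with TBV2 (2) and NT1p12 with TBVp13 (2). The letter p was taken to mean passage, which gives NT1 at passages 14 and 12 and TBV at passages 13 and 12, and no passage is given for NT1 1 and TBV2. The pairs are called p14/p13, p12/p12, NT1 1/TBV2 and p12/p13 from here on. The first 3 count as independent, and p12/p13 repeats sources of others and served as a check.

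Polycomb proteins keep developmental genes silent. Polycomb repressive complex 2, in which Eed is the scaffold beside the methyltransferase Ezh2, methylates histone H3, and Jarid2 is an accessory subunit that helps to bring this complex to its targets. Polycomb repressive complex 1 ubiquitinates histone H2A through the ligase Rnf2 (also called Ring1B), and Bmi1 is a partner of that ligase in one form of the complex. Smarca4 (also called Brg1) is the ATPase of the BAF complex, which moves nucleosomes and, in embryonic stem cells, helps to keep pluripotency genes active. Trim28 (also called Kap1) is the corepressor that zinc finger proteins with a KRAB domain recruit to silence retrotransposons, and Rif1 acts in replication timing and at damaged DNA ends.

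Each array gave 1 ratio per probe, read as log2 of Cy5 over Cy3. Signs were then set to mean NT1 over TBV, so that a value above 0 means more RNA in NT1. The sources used here settle neither the log base nor the numerator, so all signs together could be the reverse. Cy5 labelled NT1 on 7 arrays (NT1-in-Cy5 arrays) and TBV on the other 6 (TBV-in-Cy5 arrays). An array gave 14314 to 18381 probe values. Of all values 19.3% were whole numbers, without the decimals of the rest, against 10.3% at the member probes. Eed, Rnf2, Bmi1, Trim28, both Rif1 probes and the Smarca4 probe 15016 had no whole number, whereas the Smarca4 probe 16385 had 4 among 12 values and the Jarid2 probe 18591 had 3 among 13. The Jarid2 probe 9940 had 5 values, all of them whole, and could not be tested. In bulk RNA, a change in the number of cells of a type cannot be told apart from a change of RNA per cell. The table holds ratios and no intensities, so the level of a gene, and whether markers of the cells were present, could not be read from it.

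Promoters of Jarid2 and Bmi1 are shown because Jarid2 had the largest mean among the members and Bmi1 the largest difference between source pairs that passed a test. The windows hold 250 bases before and 50 after an annotated start, from RefSeq on GRCm38.p6, at chr13:44730524-44730823 (plus strand, the first of 2 Jarid2 entries) and chr2:18676768-18677067 (plus strand). Capitals mark matches, on either strand, to the E-box CACGTG, the core site of Myc-type factors, and to GCCATNTT, a core of the binding motif of YY1. Both motifs were chosen after the sequences had been seen.
Jarid2 promoter: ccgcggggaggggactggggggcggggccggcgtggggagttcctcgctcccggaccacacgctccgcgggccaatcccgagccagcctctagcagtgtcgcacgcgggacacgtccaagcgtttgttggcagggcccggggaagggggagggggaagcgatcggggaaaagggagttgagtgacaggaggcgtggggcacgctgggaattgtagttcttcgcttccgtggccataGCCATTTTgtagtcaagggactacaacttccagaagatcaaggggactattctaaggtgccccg
Bmi1 promoter: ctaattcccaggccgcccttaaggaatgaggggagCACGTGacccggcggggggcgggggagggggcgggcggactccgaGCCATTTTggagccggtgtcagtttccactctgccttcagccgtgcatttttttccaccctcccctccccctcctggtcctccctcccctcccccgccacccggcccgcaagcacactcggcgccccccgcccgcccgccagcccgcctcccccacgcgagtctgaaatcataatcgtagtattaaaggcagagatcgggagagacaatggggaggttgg
Each window held 1 match to GCCATNTT, which 6.05% of all 32851 promoter windows of this length held. Bmi1 also held 1 E-box, present in 7.15% of the windows. The GC box GGGCGG was held at least once by 35.7% of the windows. It had 6 matches in Bmi1, 3 in Smarca4, 2 each in Rnf2 and Trim28, 1 in each Jarid2 window and 0 in Eed. The other members with an entry (Eed, Rnf2, Smarca4, Trim28 and the second Jarid2 start) matched neither of the marked motifs. All 7 member windows held more CpG dinucleotides than the median of 7 over all windows, with 17 to 33. These numbers exceeded those of 68.6% to 91.4% of all windows. A match is a description of letters and not evidence of binding.

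Sall4, the gene named in the series title, read -0.03, 0.23, -0.18, 0.39 and 0.05 in p14/p13, -0.59, -0.45, -0.51 and -0.82 in p12/p12, -0.26 and -0.39 in NT1 1/TBV2, and -0.05 and -0.40 in p12/p13. It was below 0 on 10 of 13 arrays, the 3 exceptions being in p14/p13, and its mean was -0.28 ± 0.33 (SD, n = 3; limma, adjusted p = 1.00). The position of the probe relative to the mutation is not given, and these values are therefore no test of the genotype.

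The first comparison asked whether the members differed between NT1 and TBV over the 3 independent source pairs. No member passed the test: 0 of the 9 tested probes were called in limma (Benjamini-Hochberg adjusted p = 1.00 for each), and 0 had an unadjusted p under 0.05. Over all 15973 tested probes the share past the threshold was 0%, and 1.03% had an unadjusted p under 0.05. Means of the members ran from -0.10 to 0.27, 5 of them above 0 (49.9% of all probes were) and 4 below, with a median of 0.03 against -0.00054 over all probes. The median size of a member's mean was 0.098, against 0.084 for all probes. Of the 27 member pair values, 25 lay within 0.5 of 0. With n = 3 this does not show that the genes were equal in NT1 and TBV.

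**Figure D1:**
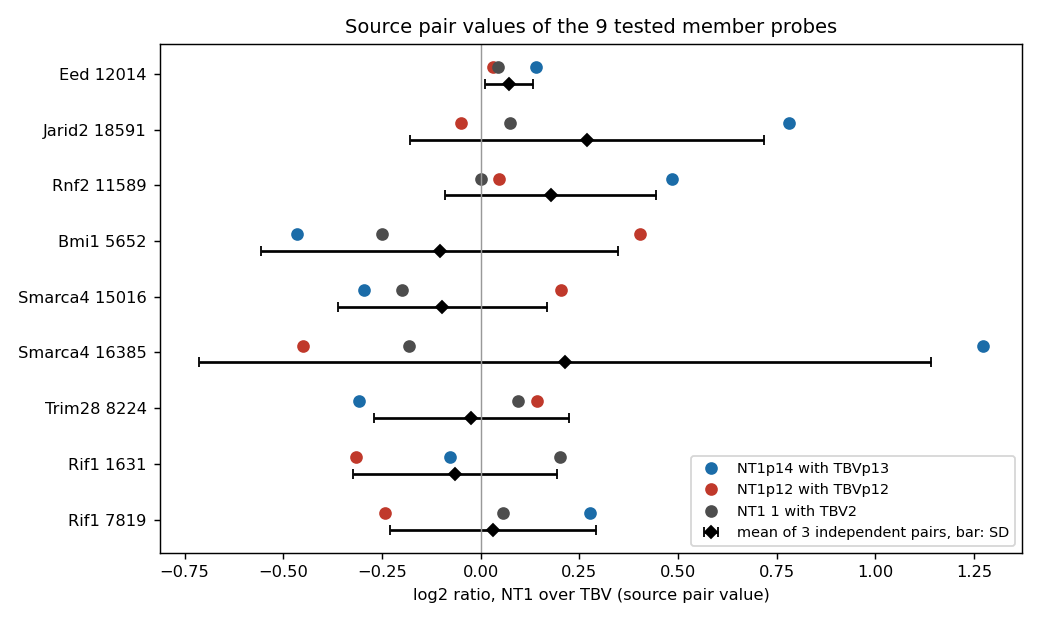
Source pair values (coloured points) of the 9 tested member probes as log2 ratio of NT1 over TBV, with the mean of the 3 independent pairs (diamond) and its SD (bar). The points of a gene lie on both sides of 0 for all probes except Eed, and Smarca4 probe 16385 reaches 1.27 in p14/p13.

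Among the Polycomb repressive complex 2 members, Eed stayed closest to 0. Its 5 arrays of p14/p13 read -0.79, 0.09, 0.12, 0.95 and 0.27, and its 4 arrays of p12/p12 read -0.03, 0.13, 0.05 and -0.02. Arrays 1 and 4 of the first pair lay at opposite ends although both carried NT1 in Cy5, so the pair with the widest spread held both extremes. The pair values were 0.14, 0.03 and 0.04, the last of them from 0.36 and -0.27 in NT1 1/TBV2, and the mean was 0.07 ± 0.06 (SD, n = 3). Eed was the 1 member of 9 above 0 in all 3 pairs, where 9.05% of all probes were, and 0 members were below 0 in all 3, where 5.33% of all probes were. In p12/p13, which repeats sources of other pairs, Eed read 0.11 and -0.06.

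Jarid2 had the largest member mean, 0.27 ± 0.45 (SD, n = 3) at probe 18591, and its size exceeded that of 91.0% of all tested probes. In p14/p13 the arrays read 0.02, 0.01, 0.62, 0.72 and 2, in p12/p12 they read -0.56, -0.25, 0.92 and -0.30, and in NT1 1/TBV2 -0.11 and 0.26. The first pair was above 0 on all 5 arrays, but array 5, a whole number, carried much of its value, and array 3 of the second pair overlapped the first. Pair values were 0.78, -0.05 and 0.07. Without p14/p13 the mean was 0.01, and without array 5 of that pair it was 0.15. Both arrays of p12/p13 read 0, as whole numbers. The dye orientations differed at this probe, without passing the test of the dye effect (limma, adjusted p = 0.14), and array 5 is one of the TBV-in-Cy5 arrays. The NT1-in-Cy5 arrays gave a mean of -0.09, and the TBV-in-Cy5 arrays gave 0.63. The second Jarid2 probe read 0, 1 and 1 in p14/p13, -2 on 1 array of p12/p12 and 0 on 1 array of p12/p13. With whole numbers only, it gave no usable second measurement of Jarid2.

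Of the ligase complex, Rnf2 and Bmi1 went apart in the first source pair. Rnf2 read -0.17, 0.27 and 0.92 on the 3 measured arrays of p14/p13, where array 5 was the only one with TBV in Cy5 that had a value. It read 0.16, 0.17, 0.04 and -0.18 in p12/p12 and 0.03 and -0.03 in NT1 1/TBV2. Its mean was 0.18 ± 0.27 (SD, n = 3), and without p14/p13 it was 0.02. The single value in p12/p13 was -0.01. Outside array 5 of p14/p13, its values stayed between -0.18 and 0.27.

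Bmi1 read -0.03, -0.03, -0.37, -0.77 and -0.93 in p14/p13, below 0 on all 5 arrays. It read 0.54, 0.72, -0.29 and 0.65 in p12/p12, above 0 on all but array 3. In NT1 1/TBV2 both dye orientations gave -0.25, and in p12/p13 they gave -0.04 and -0.12. Bmi1 was thus lower in NT1 on 10 of 13 arrays, and the 3 exceptions were all in p12/p12. The pair values of -0.46, 0.40 and -0.25 gave a mean of -0.10 ± 0.45 (SD, n = 3). Without p12/p12 the mean was -0.36, and without p14/p13 it was 0.08.

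**Figure D2:**
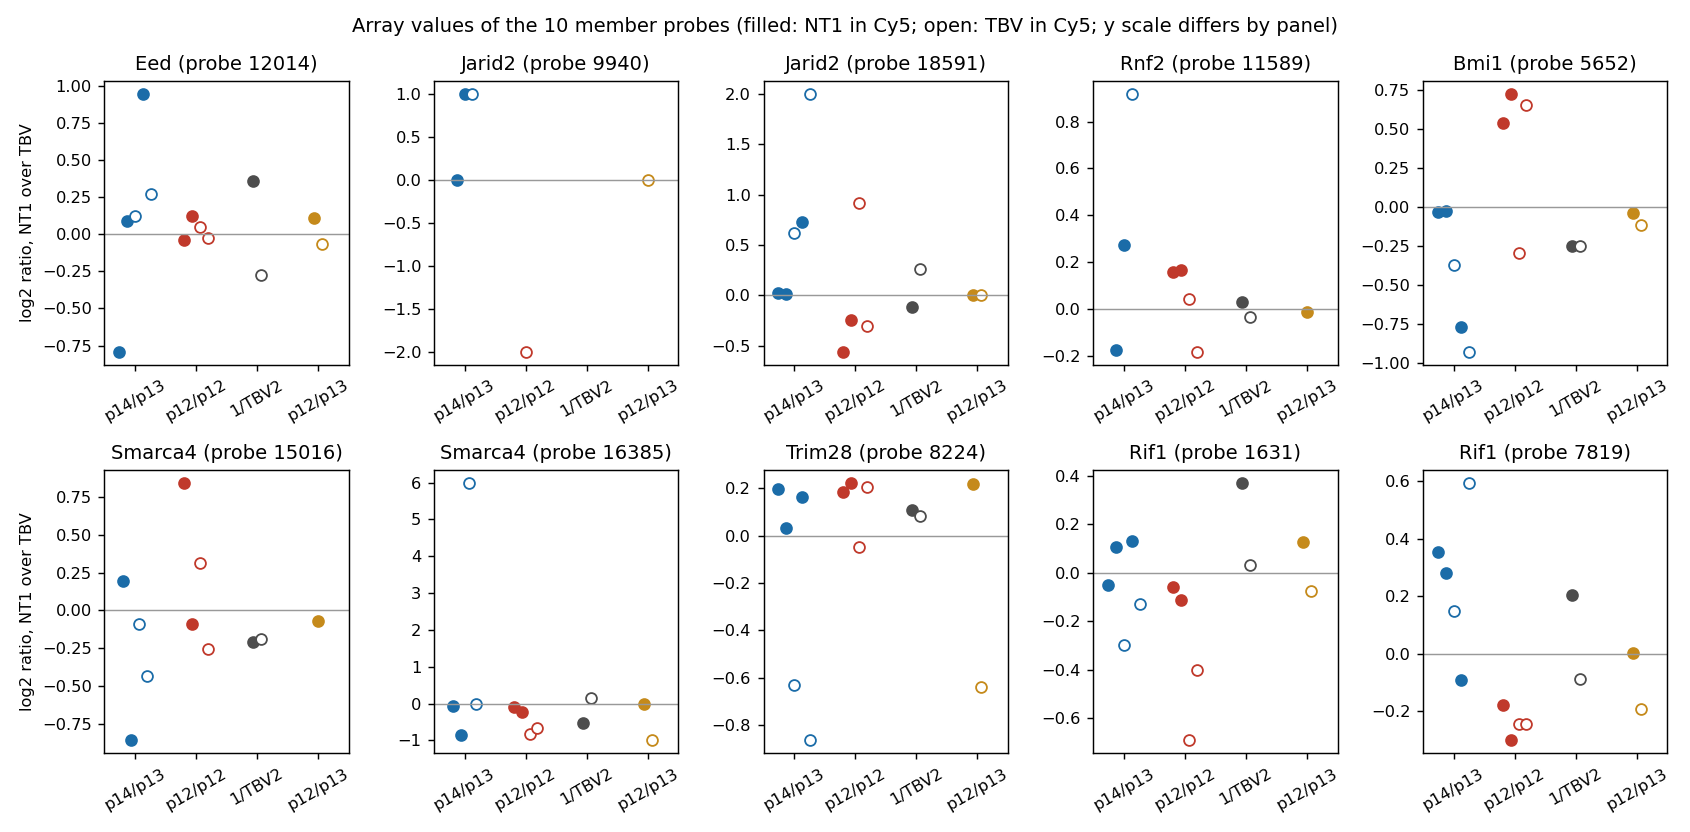
Log2 ratios of NT1 over TBV on every array for the 10 member probes, one panel each with its own y scale, grouped by source pair. Filled points had NT1 in Cy5 and open points TBV in Cy5. Bmi1 separates the first pair from the second on all arrays but 1, Rif1 probe 7819 on all arrays, and 1 array at 6 stands far from the rest of Smarca4 probe 16385.

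The 2 Smarca4 probes did not give the same picture. Probe 15016 read 0.20, -0.86, -0.09 and -0.43 in p14/p13, 0.84, -0.09, 0.31 and -0.26 in p12/p12, and -0.21 and -0.19 in NT1 1/TBV2. Its 1 value in p12/p13 was -0.07. Of its 11 values 8 were below 0, and the arrays of the first 2 pairs overlapped. Its mean was -0.10 ± 0.26 (SD, n = 3). Probe 16385 read -0.07, -0.84, 6 and 0 in p14/p13, -0.10, -0.24, -0.82 and -0.65 in p12/p12, -0.53 and 0.16 in NT1 1/TBV2, and 0 and -1 in p12/p13. A single array at 6, a whole number, made its pair value 1.27 and its mean 0.21 ± 0.93 (SD, n = 3). Without that array the mean was -0.29, below 0 like that of probe 15016. Smarca4 is therefore uncertain, and averaging its probes gave 0.06.

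Trim28 read 0.20, 0.03, -0.63, 0.16 and -0.87 in p14/p13. It read 0.19, 0.22, -0.05 and 0.21 in p12/p12, 0.11 and 0.08 in NT1 1/TBV2, and 0.22 and -0.64 in p12/p13. It was above 0 on 9 of 13 arrays, and the 3 far below 0 were the 3 arrays that carried TBVp13 in Cy5. Its pair values of -0.31, 0.14 and 0.09 gave a mean of -0.02 ± 0.25 (SD, n = 3), which was 0.15 from the NT1-in-Cy5 arrays and -0.20 from the TBV-in-Cy5 arrays. Of 11664 probes measured on all 7 arrays with TBVp13, 6.13% had the 3 arrays with TBVp13 in Cy5 all below the other 4, and 4.96% had them all above.

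The 2 Rif1 probes had means of -0.06 ± 0.26 for probe 1631 and 0.03 ± 0.26 for probe 7819 (SD, n = 3 each). Probe 1631 read -0.05, 0.11, -0.30, 0.13 and -0.13 in p14/p13, -0.06, -0.11, -0.69 and -0.40 in p12/p12, 0.37 and 0.03 in NT1 1/TBV2, and 0.13 and -0.08 in p12/p13. Probe 7819 read 0.36, 0.28, 0.15, -0.09 and 0.60 in the first pair, -0.18, -0.30, -0.25 and -0.24 in the second, 0.20 and -0.09 in the third, and 0.00 and -0.19 in p12/p13. Both probes were below 0 on all 4 arrays of p12/p12. At probe 7819 all 5 arrays of the first pair lay above all 4 of the second, the only member of 9 tested for which the pairs did not overlap. Among all probes 8.57% had the first pair wholly above the second and 6.66% wholly below.

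The second comparison asked whether the ratio of NT1 over TBV differed between p14/p13 and p12/p12. In this comparison 2 members passed: Bmi1 was lower in the first pair by 0.86 and Rif1 was higher by 0.50 at probe 7819. In limma on all 13 arrays, with a mean per source pair and a dye term, the difference was -0.86 (SE 0.24) for Bmi1 with a Benjamini-Hochberg adjusted p = 0.032, and 0.50 (SE 0.15) for Rif1 with adjusted p = 0.044. So 2 of 9 member probes passed, while 20.8% of all 16930 probes did, 10.6% as higher and 10.2% as lower. The members' share lay near that background. An unadjusted p under 0.05 was found for 4 of 9 members and for 39.5% of all probes. The arrays of a pair are repeats of the same RNA, so the test speaks of these preparations and not of passages in general. The Bmi1 call was lost in 5 of 9 fits without 1 array (arrays 4 and 5 of p14/p13 and arrays 1, 2 and 4 of p12/p12). The Rif1 call was lost in 7 of 9, all except those without array 3 or 4 of p14/p13. Without array 1, 2 or 4 of p12/p12, 0 probes of the whole table passed. Scaling arrays to a common spread left 1040 probes and 0 members, with Bmi1 at -0.63 (limma, adjusted p = 0.076) and Rif1 at 0.51 (adjusted p = 0.13).

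**Figure D3:**
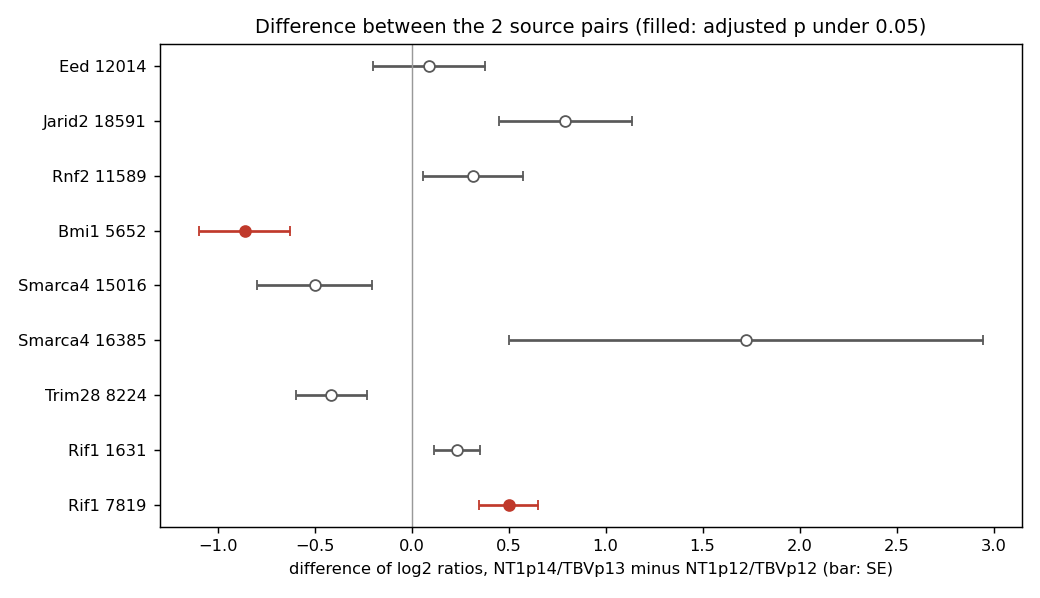
Difference of the log2 ratio of NT1 over TBV between p14/p13 and p12/p12 for the 9 tested member probes, with its SE (bar). Filled points, Bmi1 at -0.86 and Rif1 probe 7819 at 0.50, had an adjusted p under 0.05.

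The other Rif1 probe had the same direction without passing, at 0.23 (SE 0.12; limma, adjusted p = 0.17). Jarid2 was at 0.79 (SE 0.34; adjusted p = 0.11), and Trim28 at -0.41 (SE 0.18; adjusted p = 0.12) in the same limma fit. The Smarca4 probes stood at -0.50 (SE 0.30) and 1.72 (SE 1.22), the latter 0.12 without the array at 6. Rnf2 was at 0.32 (SE 0.26) and Eed at 0.09 (SE 0.29). Sall4 was itself among the probes that passed, at 0.66 (SE 0.14; limma, adjusted p = 0.017), with pair values of 0.07 and -0.59.

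The check pair p12/p13 has NT1p12 in common with one of these pairs and TBVp13 with the other. Each difference of pair values can be split into a passage difference of NT1 and one of TBV, with 1 preparation each and no test. Differences of pair values depart somewhat from the limma differences above, and were -0.87 for Bmi1 and 0.83 for Jarid2 probe 18591. For Bmi1, NT1 at passage 14 minus passage 12 was -0.38 and TBV at passage 13 minus passage 12 was 0.48. For Rif1 probe 7819 these were 0.37 and -0.15, and for probe 1631 -0.10 and -0.34. Trim28 gave -0.10 and 0.35, and Eed 0.12 and 0.01. For Jarid2 the split was 0.78 and -0.05, but it rests on 2 whole numbers of 0 in the linking pair.

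Fibroblast and pluripotency markers passed between these pairs more often than the 20.8% of all probes, and their part in the members' differences was not tested. Of 19 probes of fibroblast markers, which would mark feeder cells, 11 passed as higher in p14/p13 and 0 as lower, with a median pair difference of 1.15 (57.9% called). All 11 of these probes had 5 to 13 whole numbers, and none of the 6 fibroblast probes with at most 4 whole numbers passed. Their medians by gene were 0.65, -0.47 and -0.59 in the 3 independent pairs. Of 13 pluripotency marker probes 6 passed as higher and 0 as lower (46.2%), 4 of them with 11 whole numbers each and 2, Sall4 and Nr0b1, with 0. Of 5 trophectoderm probes 1 passed, as higher (20%), and of 11 endoderm probes 1 passed in each direction (18.2%), both shares near that of all probes.

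Over the wider chromatin lists, 0 of the measured probes passed for NT1 over TBV in limma. The Polycomb repressive complex 2 list had 10 measured genes of 12 listed, with a median of 0.05 over the 3 pairs, 1 gene above 0 in all 3 pairs (Eed) and 1 below (Rbbp7, a histone-binding subunit, at -0.23 ± 0.14, SD, n = 3, with 7 whole numbers among 11 values). Rbbp7 was at -0.57 on the NT1-in-Cy5 arrays and at 0.11 on the TBV-in-Cy5 arrays, and Eed at 0.16 and -0.02. The repressive complex 1 list had 15 of 30 and a median of -0.0014. Its genes with 1 sign in all pairs were Usp7, a deubiquitinase, at 0.13 over 3 probes and Scmh1 at 0.12 on the higher side, and Kdm2b, which binds unmethylated CpG islands, at -0.19 and Cbx2, a chromodomain subunit, at -0.16 on the lower side. Among these, 2 genes turned with the dye. Kdm2b went from 0.06 on the NT1-in-Cy5 arrays to -0.44 on the TBV-in-Cy5 arrays, and Scmh1 from -0.08 to 0.31. Usp7 had its 1 sign as a mean, since only its probe 5476 was above 0 in all 3 pairs. Its probe 14426 was at -0.07 in p12/p12, and probe 18533 at -0.27 in p14/p13 and -0.05 in p12/p12.

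The BAF list had 15 of 27 genes and a median of 0.02. Ss18, a BAF subunit, was at 0.29 ± 0.40 (SD, n = 3), most of it from 0.75 in p14/p13. Smarcd2 was at 0.09, from 0.20 on the NT1-in-Cy5 arrays and -0.02 on the others, and Bcl7b was at -0.15. Among 9 of 17 genes of the Trim28 list, with a median of -0.07, Zfp57, a KRAB zinc finger protein that holds imprints through Trim28, was at -0.51 ± 0.38 (SD, n = 3). It read below 0 on 8 of 13 arrays and above 0 on 1, with 9 whole numbers, and did not pass (limma, adjusted p = 1.00, unadjusted p = 0.034). Ehmt2, a histone methyltransferase, was at -0.18 but at 0.18 from the NT1-in-Cy5 arrays. The Rif1 list, of telomere and replication timing genes, had 9 of 14 genes and a median of 0.03. The list of enzymes that counteract Polycomb marks and their cofactors had 4 of 7 genes and a median of 0.01. The median over all 7968 genes was 0.00071.

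Of 40 listed developmental genes known as Polycomb targets, 9 were measured, with a median of -0.02. One had the same sign in all pairs: Cdkn2a, the cell cycle inhibitor locus that Bmi1 is known to repress. Its pair values were 0.25, 0.26 and 0.18, with a mean of 0.23 ± 0.05 (SD, n = 3), and it did not pass (limma, adjusted p = 1.00, unadjusted p = 0.12). The dye orientations differed: the mean was 0.0017 from the NT1-in-Cy5 arrays and 0.46 from the TBV-in-Cy5 arrays, and 9 of 13 arrays were above 0. Between p14/p13 and p12/p12 Cdkn2a differed by -0.03 (SE 0.14). A relation of Cdkn2a to Bmi1 was not tested.

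Between these pairs, 23 of 89 probes of the chromatin lists passed, or 25.8% against 20.8% of all probes, 14 as higher and 9 as lower in the first pair. In the repressive complex 2 list 2 of 10 passed, Ezh1, the second methyltransferase of that complex, at -0.80 and Rbbp4, a histone-binding subunit, at 0.87. In the repressive complex 1 list Max at 0.94 and Wdr5 at -0.76, with 3 whole numbers each, passed besides Bmi1, of 22 probes. Of 20 BAF probes 6 passed: Arid1a at 1.89, Bcl7c probe 14450 at 1.57, Dpf2 at 1.48, probe 4693 of Pbrm1 at 1.05 and Dpf1 at 0.43 as higher, and Pbrm1 probe 1517 at -0.74. Arid1a and Bcl7c probe 14450 had 11 whole numbers each among 13 values. Dpf2 had 5 and Pbrm1 probe 4693 had 4, while Dpf1 and Pbrm1 probe 1517 had 0. Bcl7c probe 12215, with 0 whole numbers, was at 0.08 (limma, adjusted p = 0.86), so Bcl7c is uncertain. In the Trim28 list Uhrf1 at 1.54, Hcfc1 at 1.10 and Daxx at -1.56 passed, Uhrf1 and Daxx with 11 whole numbers each. In the Rif1 list Ppp1cb, a catalytic subunit of the phosphatase that Rif1 binds, passed at 1.02 and Tinf2, a telomere protein, at 0.54. Besides Rif1, both probes of Terf2 passed there too, at 1.17 and -0.97. Tinf2 and both Terf2 probes had 4 whole numbers each. Of the counteracting enzymes and their cofactors both Asxl1 probes passed, at 1.20 with 4 whole numbers and at -0.50 with 0. Averaged over its probes, Terf2 was at 0.05 over the 3 pairs, from -0.03 on the NT1-in-Cy5 arrays and 0.12 on the others. Among developmental genes Pax6 at -0.80 and Cdkn1c at -0.53 passed. All of these calls share the same arrays, and none was made without array 1, 2 or 4 of p12/p12.

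**Figure D4:**
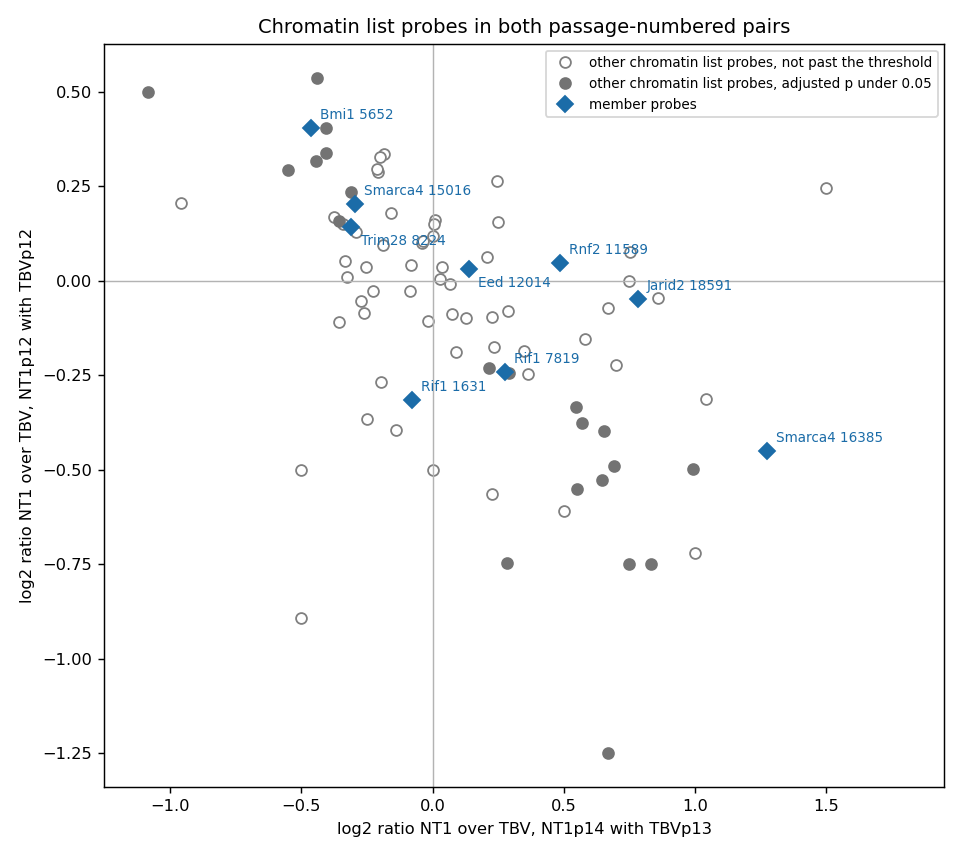
Log2 ratio of NT1 over TBV in p14/p13 (x axis) and in p12/p12 (y axis) for the 86 chromatin list probes with a value in both. Diamonds are the 9 tested member probes, and filled circles are other probes with an adjusted p under 0.05 for the difference. Of the 86 probes, 33 lie above 0 in the first pair and below 0 in the second, and 27 the other way round. The same count was not made over all probes, so it does not set these lists apart.

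The third comparison measured the dye effect at the same probes. No member passed in limma, and 0 of all 15973 probes did (0%), although 24.2% of all probes had an unadjusted p under 0.05. Jarid2 probe 18591 read lower in Cy5 by 0.36, at -0.36 (SE 0.086), and Rif1 probe 1631 read at 0.18 (SE 0.061), and these 2 members had an unadjusted p under 0.05 (limma, adjusted p = 0.14 and 0.18). Bmi1 was at 0.14 (SE 0.074), and Rif1 probe 7819 at 0.018 (SE 0.074).

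Genes whose array pattern was most like that of a member were looked up among 4827 probes, or 4826 for Rif1, with a symbol, a value on all 13 arrays and at most 3 whole numbers. For Bmi1 these were Nup93 (Pearson r = 0.98) and Lyrm7 (r = 0.98), for Jarid2 9530059O14Rik (r = 0.97) and Sec14l1 (r = 0.95), and for Trim28 Glg1 (r = 0.93) and Elovl4 (r = 0.93). For Eed they were Rwdd4a (r = 0.86) and Gpatch4 (r = 0.83). Rif1 probe 1631 was followed most closely by Gtf2b and Abhd16a (r = 0.87 each), and probe 7819 by Sh2b2 and Dpf1 (r = 0.87 each). The 13 arrays share 4 source pairs and 2 dye orientations, so such correlations are descriptions.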

How the data were processed

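Total RNA of 2 sources was hybridised together on each of 13 two-colour arrays. In the table the authors deposited, each probe has 1 value on an array, treated here as a log2 ratio of the channels. The normalisation is not given in the sources used here. Values were centred on each array's median and turned to NT1 over TBV by the dyes in the labels. A pair value is the mean of both dye orientations, each averaged over its arrays. Repeated arrays of 1 RNA are technical repeats, which left 3 independent pairs, and NT1p12 with TBVp13 served as a check. Probes measured in all 3 pairs were compared with 0 using limma 3.58.1 in R 4.3.3 (two-sided, Benjamini-Hochberg over all probes, threshold 0.05). The dye effect used the same fit. The difference between 2 source pairs was tested with limma's moderated variances on the 13 arrays, for probes with at least 2 arrays in each. The number of arrays limits the precision, and p-values of NT1 over TBV measure only the spread among 3 pairs of preparations, which nothing says are separate clones. Those between 2 source pairs measure only the spread among repeat arrays, with 1 preparation of each source in each pair. Probes were named through the platform annotation, those with 1 symbol only. The members and gene lists were chosen with earlier results of these data known. Named genes were all member probes, Sall4 and Pou5f1 as references, list genes past a threshold, the 2 largest and 2 smallest means per list among genes with 1 sign in all pairs, and the 2 genes most like each member. Alternatives covered dye orientation, scaling, centring, blocks, probe averaging, whole numbers and left-out arrays. Pou5f1, which encodes Oct4, was at -0.59 ± 0.38 (SD, n = 3). Scripts were tested on simulated data. Plots used Python 3.11.15 and matplotlib 3.10.9.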

Additional observations from a re-analysis of the deposited data

Results flagged for a closer look

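Among the members, 4 values stood out. At Smarca4 probe 16385, array 3 of p14/p13 read 6 while the other 3 arrays with a value lay between -0.84 and 0. At Trim28, array 3 of p12/p12 read -0.049 while the other 3 arrays lay between 0.19 and 0.22. These were 2 of 17 groups of 4 or 5 arrays examined, and chance marks about 1 in 20 groups of normally spread values. Bmi1 and Rif1 probe 7819 differed between p14/p13 and p12/p12, by -0.86 and 0.50 (limma on arrays, adjusted p = 0.032 and 0.044).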

How the results depend on the processing

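No member passed for NT1 over TBV in any of 14 other settings or in 14 fits without 1 source pair or 1 array. Each array sets NT1 against TBV, so the test of ratios is itself paired by array. No fit with a replicate block by number was made, because the labels number no replicates across groups. Of all probes 3 passed with the source pair as a random block and 10 with 13 arrays as independent. The consensus correlation within source pairs in the block fit was -0.16. As it was below 0, that fit is not read as allowing for likeness among repeat arrays of a pair. Without 1 pair or array 0 passed. An unadjusted p under 0.05 in limma was found for 50 to 888 probes there and for 91 to 1112 in the other settings. The main fit had 164 such probes, where 799 would be expected if no probe differed. With the signs of p14/p13 turned there were 1083. There were 574 without p14/p13, 888 without p12/p12 and 50 without NT1 1/TBV2. Turning another pair was not tried, and the cause of the low number was not tested. With p14/p13 turned, 8 of 9 probes changed sign: Eed -0.022, Jarid2 -0.25, Rnf2 -0.15, Bmi1 0.21, Smarca4 0.10 and -0.64, Trim28 0.18 and Rif1 probe 7819 -0.15. With NT1 in Cy5 only Jarid2 was at -0.089, Bmi1 at 0.034, Smarca4 probe 16385 at -0.38, Trim28 at 0.15 and Rif1 probe 1631 at 0.12, and with TBV in Cy5 only Eed at -0.021. Scaled arrays gave Eed -0.036 and Trim28 0.044, 4 pairs gave Rif1 probe 7819 -0.00069, and averaged probes gave Smarca4 0.058 and Rif1 -0.017. Without 1 pair or array, Eed ran from -0.034 to 0.18, Bmi1 from -0.36 to 0.077, Smarca4 from -0.25 to 0.0019 and from -0.32 to 0.71, Trim28 from -0.11 to 0.12, and Rif1 from -0.20 to 0.062 and from -0.093 to 0.17.

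Between the source pairs, 2178 probes and 1 member (Bmi1) passed without the dye term, 0 and 0 in either dye orientation alone, and 1040 and 0 with scaled arrays. Rnf2 was at -0.11 and Smarca4 probe 16385 at -0.29 with NT1 in Cy5 only, and Eed at -0.27 with scaled arrays. Without 1 array, 0 to 4767 probes and 0 to 2 members passed, with 0 and 0 without array 1, 2 or 4 of p12/p12, and 1365 and 0 without array 5 of p14/p13. Eed ran from -0.11 to 0.33 and Rnf2 from -0.085 to 0.55. Bmi1 kept its sign, from -1.05 to -0.72 (adjusted p 0.014 to 0.097), as did Rif1 probe 7819, from 0.39 to 0.59 (limma, adjusted p 0.030 to 0.12). For the dye effect 0 to 1 probes passed without 1 pair (1 without p14/p13), where Eed ran from -0.021 to 0.17, Rnf2 from -0.20 to 0.074, Smarca4 probe 15016 from -0.022 to 0.083 and Rif1 probe 7819 from -0.047 to 0.074. The cause of these changes was not tested.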

Other observations

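At Trim28 the 3 arrays with TBVp13 in Cy5, which belong to 2 source pairs, read -0.63, -0.87 and -0.64, and the 4 arrays with TBVp13 in Cy3 read 0.03 to 0.22. The groups lay at least 0.5 apart. Of 11664 probes with a value on all 7 of these arrays, 6.13% had the groups apart by any amount in this direction and 4.96% in the other. A gap of at least 0.5 in this direction was found at 23 probes (0.197%). That direction and gap follow the pattern noticed in the values, so 0.197% does not measure how rare it is. The pattern was not tested.

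Different probes of the same chromatin gene could pass in opposite directions between p14/p13 and p12/p12. Asxl1, a cofactor of the enzyme that removes ubiquitin from histone H2A, was at 1.20 (SE 0.37) and -0.50 (SE 0.13). Pbrm1, a bromodomain subunit of PBAF, was at 1.05 (SE 0.24) and -0.74 (SE 0.18). Terf2, which binds telomere repeats, was at 1.17 (SE 0.22) and -0.97 (SE 0.24). Of 90 genes with 2 or more probes past the threshold, 34 had probes on both sides (37.8%). Among probes with at most 3 whole numbers these were 9 of 21 genes (42.9%), which leave out Asxl1, Pbrm1 and Terf2: Asxl1 and Pbrm1 each had 1 probe, and Terf2 both, with 4 whole numbers.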
